A study of Mus musculus with 4 samples.

Results

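The tRNAs of glutamine (tRNA-Gln, the Gln table) were followed here as 1 of 23 tRNA families whose small RNA coverage was deposited position by position. The family was chosen by measured values, with results of these data known: its forward-strand coverage lay on both sides of the anticodon and its total was higher in the Dnmt2 KO library than in the WT library of the same replicate number, in both numbers. Its table has 71 positions of the 1656 that had coverage in any family. RNA came from bone marrow of C57BL/6 mice at postnatal day 8, in 2 libraries of Dnmt2-/- mice (Dnmt2 KO) and 2 libraries of wild-type mice (WT). The labels name no allele, do not say how many animals gave a library, and do not say whether replicates are separate animals, so the spread between them may be technical. The tables hold tRNA coverage alone, so neither the loss of Dnmt2 RNA nor markers of bone marrow could be checked in them.

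A tRNA folds into an acceptor stem, a D arm near the 5′ side, an anticodon arm in the middle and a T arm near the 3′ side. Ribonucleases such as angiogenin can cut the anticodon loop under stress, which leaves a 5′ and a 3′ fragment, and other cuts in the D or T loop leave shorter fragments. Dnmt2 methylates cytosine 38 in the anticodon loop of tRNA-Asp, tRNA-Gly-GCC and tRNA-Val, a mark that protects these tRNAs from cutting. tRNA-Gln, which reads the glutamine codons, is not counted among the Dnmt2 substrates of the mouse. RefSeq lists 16 nuclear tRNA-Gln genes of the mouse, 10 with the anticodon CTG and 6 with TTG, and the table joins them without saying which gene or anticodon gave a read.

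Values are coverage on a scale that the authors divided by one constant per library, called units below. Within a library all nonzero values were multiples of a smallest step, which is taken as 1 read. Positions are the table's rows counted from 1. The 16 annotated genes are each 72 bases long and the table has 71 rows, so 1 base appears to have no row. The files do not say which base that is, and every position may be off by 1. The Asp and Glu tables are also 1 row shorter than their genes. Coverage was split into a 5′ window (positions 1 to 31), an anticodon loop window (positions 32 to 38) and a 3′ window (positions 39 to 71). Over the 23 families, reads at the highest position of each summed to 267920 and 220277 in the Dnmt2 KO libraries and 423186 and 337091 in the WT libraries.

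The coverage of tRNA-Gln rose and fell at several places along the table, and not at the anticodon alone. It joins the reads of several genes, so which fragments were present, and what left each rise or fall, was not tested. Few reads began at the 5′ end, coverage climbed inside the 5′ side, dropped in the anticodon loop without vanishing, formed a middle plateau, fell to a gap near position 56, and rose again into a last plateau that ran to the 3′ end. This shape was seen in all 4 libraries. The Pearson correlation of the profile over the 71 positions was 0.89 between the Dnmt2 KO libraries and 0.79 between the WT libraries. It was 0.98 between the Dnmt2 KO and WT libraries numbered 1 and 0.84 between those numbered 2. Across numbers it was 0.90 between Dnmt2 KO replicate 2 and WT replicate 1. Between Dnmt2 KO replicate 1 and WT replicate 2 it was 0.80. All are descriptions, since neighbouring positions share reads.

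**Figure D1:**
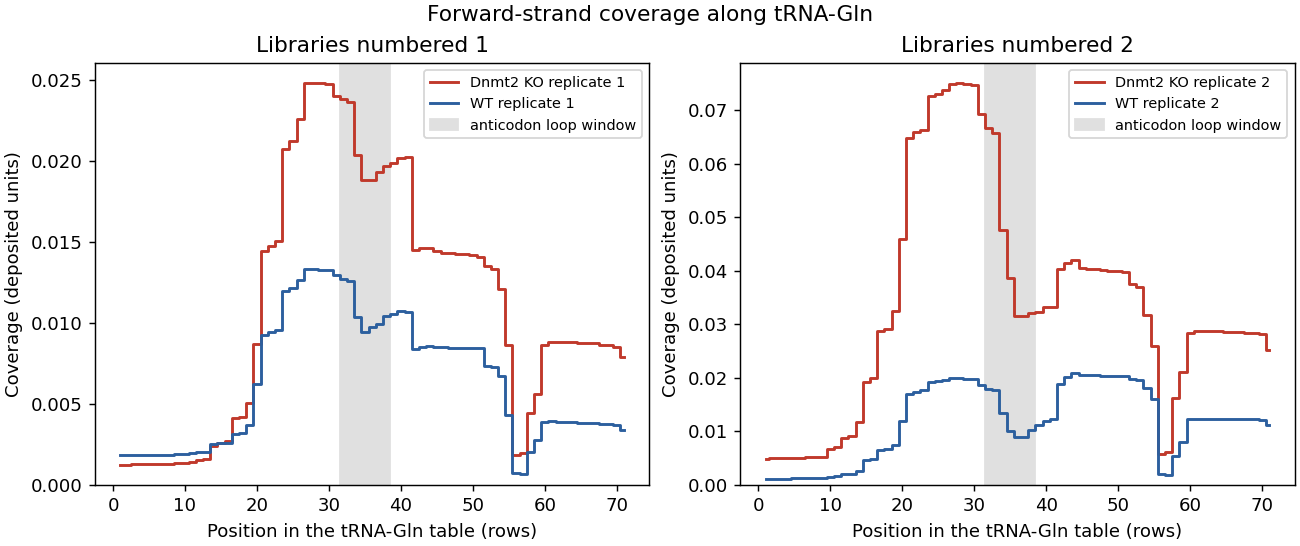
Forward-strand coverage of tRNA-Gln (deposited units, y axis, with a scale of its own in each panel) by position in the table (rows, x axis), in libraries numbered 1 (left) and 2 (right), Dnmt2 KO in red and WT in blue, 1 line per library. The grey band is the anticodon loop window, positions 32 to 38, and the gap near position 56 stands in all 4 lines.

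On the 5′ side, the first position held 91 and 172 reads in Dnmt2 KO replicates 1 and 2, and 276 and 83 reads in WT replicates 1 and 2. A read over the first row starts there, or 1 base before it if the missing base is at that end. These are thus the reads that begin at the 5′ end. They made up 4.81% and 6.43% of the highest 5′ position in Dnmt2 KO and 13.6% and 5.63% in WT. Coverage of the 5′ side was therefore mostly from reads that start further in, and the working name of 5′ fragments holds for their side of the anticodon but not for their start.

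The highest 5′ position was 28 in every library. It carried 1890 and 2677 reads in Dnmt2 KO and 2031 and 1475 reads in WT, with exact Poisson 95% intervals of 1806 to 1977, 2577 to 2780, 1944 to 2121 and 1401 to 1552 reads in the same order. Without molecular identifiers, such intervals describe counting error alone. In units, position 28 stood at 0.0248 and 0.0751 in Dnmt2 KO and at 0.0133 and 0.0199 in WT. Both Dnmt2 KO libraries were above both WT libraries there in units, as at 17.1% of the positions of all families. The contrast in units chose the family, so this is a description. The read numbers overlapped, and the step of 1 read was worth 1.31e-05 and 2.80e-05 units in Dnmt2 KO and 6.57e-06 and 1.35e-05 units in WT.

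Where reads start and end was read from the steps between neighbouring positions. A rise counts the starts at a position minus the ends at the position before, and a fall counts the reverse, so each step is a lower bound. By the mean of the 4 libraries, the 3 largest rises stood at positions 20, 21 and 24. At position 20 the net starts were 276 and 485 reads in Dnmt2 KO and 388 and 340 reads in WT. At position 21 they were 437 and 667 reads in Dnmt2 KO and 461 and 373 reads in WT. Positions 20 and 21 together gave 37.7% and 43.0% of all net starts up to position 28 in Dnmt2 KO, and 41.8% and 48.3% in WT, more than any other pair of neighbouring positions up to there in each library.

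Position 24 differed between the replicate numbers more than between the genotypes. Its net starts were 432 and 228 reads in Dnmt2 KO and 363 and 118 reads in WT. They made up 22.9% and 8.52% of the net starts up to position 28 in Dnmt2 KO and 17.9% and 8.00% in WT, high in both libraries numbered 1 and low in both numbered 2. All rises at positions 14 to 27, which lie between the 5′ end and the anticodon loop window, came to 93.5% and 87.6% of these net starts in Dnmt2 KO and 84.6% and 90.0% in WT.

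In the anticodon loop, the largest fall was from position 33 to position 34. Net ends at position 33 were 247 and 649 reads in Dnmt2 KO and 334 and 316 reads in WT. At position 34 a further 121 and 317 reads ended in Dnmt2 KO and 140 and 254 reads in WT. Ends summed over positions 30 to 35 came to 453 and 1539 reads in Dnmt2 KO and 577 and 806 reads in WT. Both values of the libraries numbered 2 were above both values of those numbered 1.

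Coverage did not drop to 0 in the loop. The highest loop position was 32, with 1812 and 2375 reads in Dnmt2 KO and 1931 and 1328 reads in WT. The lowest loop position, 36 in both Dnmt2 KO libraries and 35 and 36 in WT replicates 1 and 2, still held 1430 and 1122 reads in Dnmt2 KO and 1440 and 656 reads in WT. That is 75.7% and 41.9% of the 5′ peak in Dnmt2 KO, and 70.9% and 44.5% in WT. At most this many reads can span the whole loop window, and starts and ends that cancel inside it would make the number smaller. Again the libraries numbered 1 were the high ones in both genotypes.

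**Figure D2:**
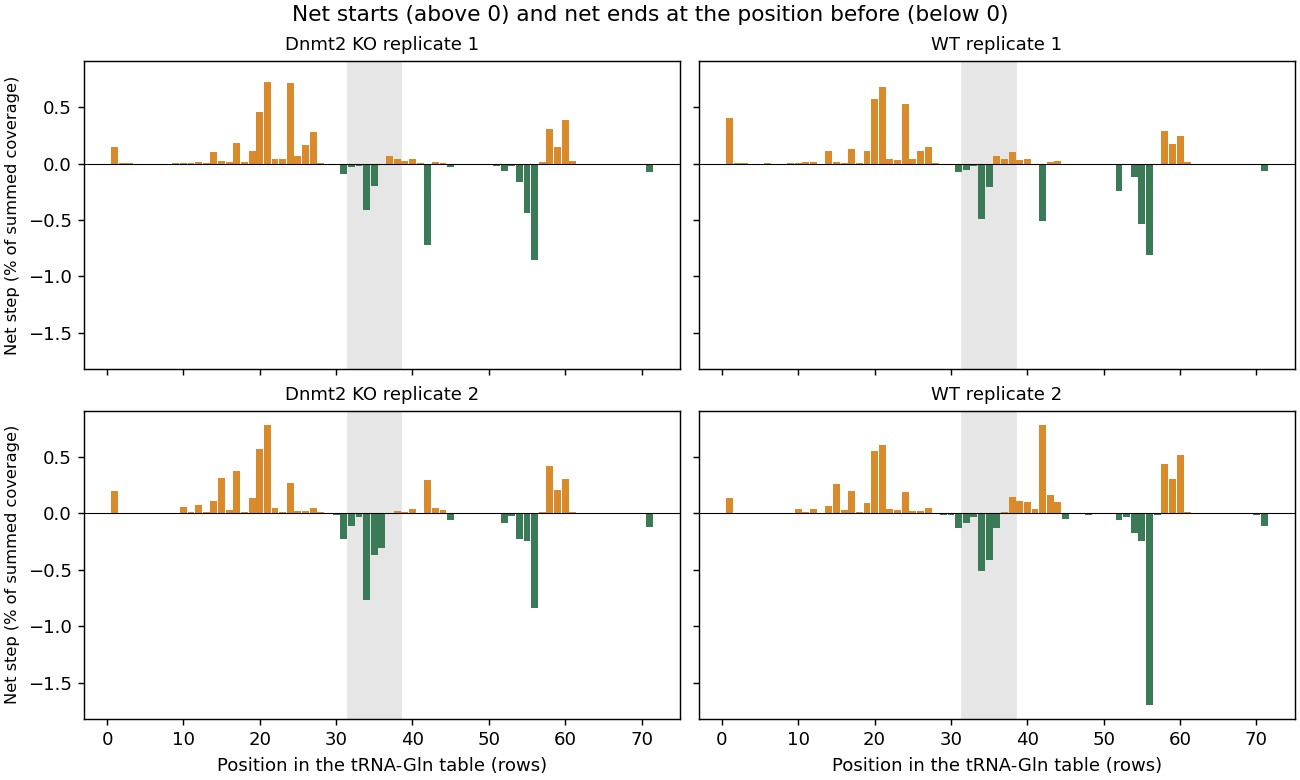
Net step between neighbouring positions of tRNA-Gln (percent of the summed coverage of the family in that library, y axis) by position in the table (rows, x axis), 1 panel per library with Dnmt2 KO on the left and WT on the right. Bars above 0 are net starts, bars below 0 are net ends at the position before, and the grey band is the anticodon loop window. Rises at positions 20 and 21, falls into positions 34 and 56, and rises at positions 58 to 60 stand in every panel, while the bar at position 42 points down in both libraries numbered 1 and up in both numbered 2.

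Just after the anticodon loop window, the libraries split by replicate number. From position 41 to position 42, coverage fell by 437 reads in Dnmt2 KO replicate 1 and by 349 reads in WT replicate 1. At the same place it rose by 253 reads in Dnmt2 KO replicate 2 and by 480 reads in WT replicate 2. Net ends at position 41 were thus seen in libraries numbered 1 and net starts at position 42 in libraries numbered 2, in both genotypes. What a number marks is not stated in the labels.

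The 3′ window held a middle plateau and a terminal one. Its highest position was 41 and 44 in Dnmt2 KO and 40 and 44 in WT, with 1542 and 1497 reads in Dnmt2 KO and 1632 and 1550 reads in WT. The middle plateau ended in a series of falls, of which the ones into positions 55 and 56 were the largest of the 3′ side by the mean of the 4 libraries. Net ends at position 54 were 262 and 205 reads in Dnmt2 KO and 366 and 153 reads in WT. Net ends at position 55 were 516 and 716 reads in Dnmt2 KO and 551 and 1044 reads in WT. They were 55.7% and 59.3% of all net ends from position 51 to position 55 in Dnmt2 KO, and 47.0% and 77.0% in WT.

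Within the 3′ window the coverage was lowest at positions 56 and 57, with 142 and 207 reads in Dnmt2 KO and 104 and 133 reads in WT. The lowest point was at position 56 in both Dnmt2 KO libraries and at position 57 in both WT libraries, where neighbouring counts differ by at most 13 reads. It held 9.21% and 13.8% of the 3′ peak in Dnmt2 KO and 6.37% and 8.58% in WT. In every library, then, at most this many reads can join the middle plateau to the 3′ end.

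Behind that gap, net starts at positions 58 to 61 summed to 522 and 802 reads in Dnmt2 KO and 492 and 782 reads in WT. These reads ran on with few ends, and the last position kept 89.7% and 88.0% of position 61 in Dnmt2 KO and 86.7% and 89.9% in WT. The last position held 602 and 899 reads in Dnmt2 KO and 517 and 823 reads in WT. Reads at the last position thus exceeded reads at the first in each library, with ratios of 6.62 and 5.23 in Dnmt2 KO and 1.87 and 9.92 in WT. Whether reads with the added CCA tail were kept is not stated by the labels or headers.

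Rises summed over the whole table give the least number of reads that could make the profile. There were at least 2539 and 3871 tRNA-Gln reads in Dnmt2 KO and at least 2741 and 3151 in WT. The summed coverage per such read was 23.8 and 22.0 positions in Dnmt2 KO and 24.9 and 19.5 positions in WT, which is the longest mean read these tables allow within the 71 rows.

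The total of tRNA-Gln, the coverage summed over its positions, was 0.792 and 2.39 units in Dnmt2 KO replicates 1 and 2 and 0.449 and 0.832 units in WT replicates 1 and 2. The ranges overlapped, since Dnmt2 KO replicate 1 lay below WT replicate 2. The ratio of Dnmt2 KO to WT was 1.77 in number 1 and 2.87 in number 2. These ratios chose the family and are given as a description, with no test. The same direction in both numbers was seen in 17 of 23 families (73.9%), from which nothing is read about tRNA-Gln. The family just inside that rule was Ile, with a lower ratio of 1.00, and the one just outside was Lys, with 0.990. In the fit of all families with genotype as the sole term, limma called 0 of 23 (0%) at an adjusted p below 0.05, and 0 had an unadjusted p below 0.05. Each library carries an unexplained constant of its own, so a level in units cannot be told apart from the scale of its library.

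The share of tRNA-Gln in the coverage of its library does not depend on that constant. It was 0.722% and 1.25% in Dnmt2 KO and 0.512% and 0.580% in WT. Both Dnmt2 KO libraries were above both WT libraries, as in 3 of 23 families (13%). As deposited, the log2 difference of the total was 1.17 (SE 0.86) against a median of 0.47 over all families. With libraries rescaled to one total it was 0.80 against a median of 0.10, and with one median family it was 0.69 against a median of −0.0070. Leaving out a library moved the difference as deposited to 1.96 without Dnmt2 KO replicate 1, 0.37 without Dnmt2 KO replicate 2 and 0.72 without WT replicate 1. As deposited, tRNA-Gln stood 0.70 above the median family, a distance that a factor per library leaves nearly fixed by construction. Fewer cells of a type and less RNA per cell cannot be told apart in such bulk samples.

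The 3 Dnmt2 substrate families had a median log2 difference of 0.42, with 2 of 3 higher in Dnmt2 KO within both numbers. The 5 families known for 5′ fragments in blood-forming tissues (GlyGCC, Glu, Val, Lys and His) had a median of 0.35, with 2 of 5 higher within both numbers. Over all families the median was 0.47, with 17 of 23 higher within both numbers. The lists share GlyGCC and Val. Both lists were chosen with earlier results of these data known, and tRNA-Gln is in neither.

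The windows were then compared one by one, as levels per position. These come from the contrast that chose the family, and they too are descriptions. The 5′ window averaged 0.00900 and 0.0338 units in Dnmt2 KO and 0.00580 and 0.00872 units in WT. Both Dnmt2 KO libraries were above both WT libraries by a narrow margin, as in 4 of 23 families (17.4%). The ratio of Dnmt2 KO to WT was 1.55 in number 1 and 3.88 in number 2.

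The loop window averaged 0.0206 and 0.0448 units in Dnmt2 KO and 0.0107 and 0.0124 units in WT, with ratios of 1.92 and 3.60 in numbers 1 and 2. Here the groups stood further apart, and 2 of 23 families (8.7%) had both Dnmt2 KO libraries above both WT libraries in this window. The 3′ window averaged 0.0112 and 0.0310 units in Dnmt2 KO and 0.00588 and 0.0144 units in WT. These ranges overlapped, and the ratios of 1.90 and 2.15 were both above 1, as in 18 of 23 families (78.3%). The log2 difference was 1.29 (SE 0.86, 95% limma interval −1.20 to 3.77) in the 5′ window. It was 1.39 (SE 0.63, interval −0.27 to 3.05) in the loop window and 1.01 (SE 0.86, interval −0.94 to 2.96) in the 3′ window. Without Dnmt2 KO replicate 2 these differences were 0.34, 0.83 and 0.28 in the 5′, loop and 3′ windows. Since this contrast chose the family, the intervals are descriptions and not tests. Each fold is on the scale of log2(units + 1e-04).

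How the coverage divided among the windows is free of the library constant. The 5′ window held 35.2% and 44.0% of the family in Dnmt2 KO and 40.04% and 32.5% in WT. The loop window held 18.2% and 13.1% in Dnmt2 KO and 16.7% and 10.5% in WT. The 3′ window held 46.6% and 42.9% in Dnmt2 KO and 43.2% and 57.1% in WT. All 3 shares overlapped between the genotypes. Their means were 39.6% ± 6.19 in Dnmt2 KO and 36.3% ± 5.36 in WT for the 5′ window (SD, n = 2 each). For the loop window they were 15.7% ± 3.59 in Dnmt2 KO and 13.6% ± 4.45 in WT, and for the 3′ window 44.7% ± 2.60 in Dnmt2 KO and 50.1% ± 9.80 in WT.

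Within the 3′ window, positions 39 to 57 held 32.2% and 27.1% of the family in Dnmt2 KO and 32.02% and 37.9% in WT. Positions 58 to 71 held 14.4% and 15.8% in Dnmt2 KO and 11.2% and 19.2% in WT. The first 13 positions held 2.20% and 3.22% in Dnmt2 KO and 5.49% and 2.09% in WT. These pieces were cut after the profile was seen, and their values overlapped between genotypes.

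Position by position, the level was higher in Dnmt2 KO within both numbers at 56 of 71 positions (78.9%), against 59.5% of the positions of all families. The family was chosen for a total that was higher within both numbers, so nothing is read from that excess. In number 2 the level was higher in Dnmt2 KO at all 71 positions, and in number 1 at positions 16 to 71. At positions 1 to 15 Dnmt2 KO replicate 1 was below WT replicate 1, and the ratio at position 1 was 0.659 in number 1 and 4.30 in number 2. Both Dnmt2 KO libraries were above both WT libraries at 19 positions of tRNA-Gln (26.8%), against 17.1% of the positions of all families, in the contrast that chose the family. Of these, 18 formed one run from position 24 to position 41, around the anticodon loop, and the other was position 57. Neighbouring positions share reads, so such a run is not a count of independent events. limma called 0 of 1656 positions (0%) in the fit of all families, and 0 had an unadjusted p below 0.05.

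The largest log2 difference among positions higher in both numbers was at position 57, inside the gap. It stood at 0.00196 and 0.00617 units in Dnmt2 KO and at 0.000683 and 0.00180 units in WT, from 149 and 220 reads in Dnmt2 KO and 104 and 133 reads in WT. The log2 difference was 1.56 (SE 0.88, 95% limma interval −0.65 to 3.77). As the position was picked for its difference, the interval is a description and not a test.

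Setting each position against the total of tRNA-Gln removes the shift of the total. The share of a position was then higher in Dnmt2 KO within both numbers at 17 of 71 positions, against 30.1% over all families, and lower at 10 positions, against 29.8%. The 17 lay at positions 26 to 39 and 56 to 58, and the 10 at positions 42 to 51. At position 28 the ratio of shares was 1.05 in number 1 and 1.31 in number 2, and at position 46 it was 0.957 and 0.688. At the 5′ end the numbers went apart, with a ratio of 0.373 at position 1 in number 1 and 1.501 in number 2. At the 3′ end they went apart the other way, with 1.32 at position 71 in number 1 and 0.791 in number 2.

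**Figure D3:**
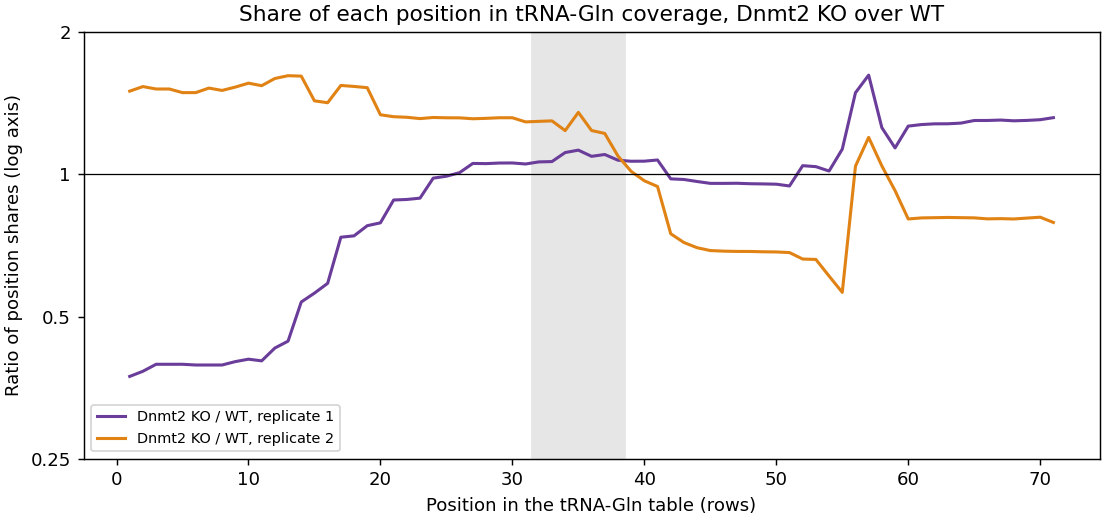
Ratio of the share of each position in the tRNA-Gln coverage, Dnmt2 KO over WT (y axis, log axis), by position in the table (rows, x axis), for libraries numbered 1 (purple) and 2 (orange). The grey band is the anticodon loop window and the black line marks a ratio of 1. Both lines lie above 1 from position 26 to position 39 and below 1 from position 42 to position 51, and they lie on opposite sides of 1 at both ends.

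By its profile, tRNA-Gln was most like Asn, Met and Pro, with Pearson correlations of 0.62, 0.61 and 0.49 over 71 positions of the mean profile of the 4 libraries. These are descriptions across positions, and Asn rests on 62 to 104 reads at its peak. The loop share of Asn was 16.4% and 15.7% in Dnmt2 KO and 17.5% and 18.5% in WT, and that of Met was 13.1% and 10.04% in Dnmt2 KO and 12.4% and 11.01% in WT. By loop share, tRNA-Gln ranked 1 and 2 among the 23 families in the Dnmt2 KO libraries and 2 and 3 in the WT libraries. Asn and Met held the other ranks from 1 to 3 in each of the 4 libraries. The spread of tRNA-Gln, from 10.5% to 18.2%, covers most of the values of both.

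Glu and Asp were chosen for comparison because their coverage lies mostly in the 5′ and mostly in the 3′ window. That tRNA-Gln lay between them in these shares was thus fixed by the choice. Glu had 90.1% to 91.1% of its coverage in the 5′ window over the 4 libraries, and its first position held 75.2% to 87.3% of its 5′ peak. Asp, a Dnmt2 substrate, had 66.4% to 85.2% in the 3′ window and 37.7% to 59.1% of its 5′ peak at the first position. tRNA-Gln, at 42.9% to 57.1% in the 3′ window and 4.81% to 13.6% at the first position, overlapped neither, and its first position lay below that of both. A low first position was not particular to tRNA-Gln, which ranked 19 and 20 from the highest in Dnmt2 KO and 20 and 19 in WT. Arg, at 2.22% to 6.49%, was below tRNA-Gln in each library, and Trp held 5.26% to 15.4%. Met and Pro, near by profile, spread more widely, at 3.81% to 28.6% and 4.63% to 29.0%. With 4 libraries set pairwise against another family, the smallest two-sided p of an exact permutation test is 0.125, and no test of these differences is given. In total coverage tRNA-Gln ranked 8 of 23 in both Dnmt2 KO libraries and 10 of 23 in both WT libraries.

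**Figure D4:**
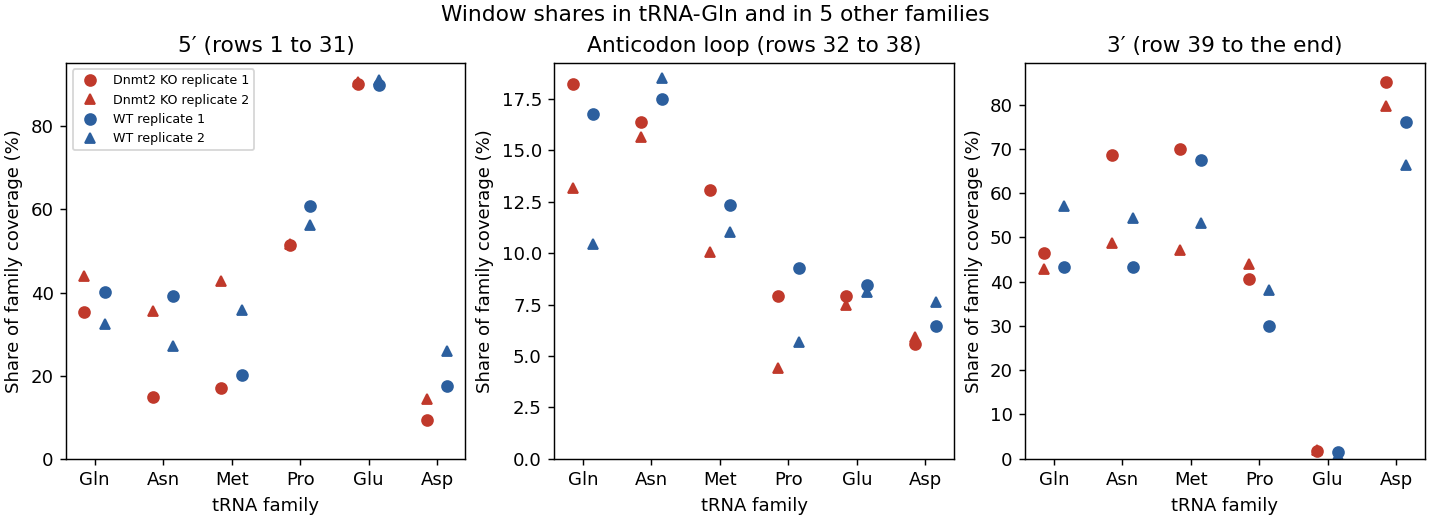
Share of the coverage of a tRNA family (%, y axis) in the 5′, anticodon loop and 3′ windows for tRNA-Gln and 5 other families (x axis), 1 point per library, Dnmt2 KO in red to the left of WT in blue, circles for replicate 1 and triangles for replicate 2. Glu and Asp were chosen for coverage mostly in the 5′ and mostly in the 3′ window, so tRNA-Gln lies between them there by choice. The loop share of tRNA-Gln, 10.5% to 18.2%, is above that of Glu and Asp in all 4 libraries.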

How the data were processed

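Small RNA was sequenced from total RNA that was end-repaired with T4 polynucleotide kinase and size-selected, per the labels' protocols. Per the submitters' processing notes, the tools were CASAVA 1.8.3 and Bowtie. Neither labels nor headers state the genome build, the set of tRNA genes, the alignment settings or how reads matching several tRNA genes were treated. The 48 deposited tables hold signal, per the file headers the coverage of a tRNA family per library and strand, divided by a constant per library that nothing explains. All values above 0 (100%) were whole multiples of one step per library, within 0.01 of a step, and the step was taken as 1 read. Since 1 read adds to each position that it covers, count models were not applied.

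From the forward strand, totals, windows, shares and single positions were computed in Python 3.11.15. The table of all glycine tRNAs, which repeats GlyGCC and Gly_non_GCC, was left out of the 23 families. For background, limma 3.58.1 in R 4.3.3 was fitted with genotype as the sole term over all families or all 1656 positions with coverage, with Benjamini-Hochberg adjustment, on log2(value + pseudocount). The pseudocount was 0.001 for totals and for both sides of the odds of a share, and 1e-04 for windows and positions. For 2 against 2 libraries the smallest two-sided exact permutation p is 0.333. A floor of 3 reads is worth 3.94e-05 and 8.41e-05 units in the Dnmt2 KO libraries and 1.97e-05 and 4.05e-05 in the WT libraries. tRNA gene names, counts and lengths come from RefSeq (GRCm38.p6), and the lengths were set only against the rows of the tables.

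tRNA-Gln, the windows and the lists were chosen with earlier results of these data known. Named were the first and last position, the highest of each window, the 3 largest rises and falls, the position with the largest difference, and the families Glu, Asp and the 3 nearest by profile. Glu and Asp were named for their mostly 5′ and mostly 3′ coverage. Positions 24, 36, 41, 42, 46, 58 to 61 and the split of the 3′ window at position 58 were described after their values were seen. Alternatives left out each library, added the replicate number as a block, rescaled libraries, and changed pseudocounts, windows and filters.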

Additional observations from a re-analysis of the deposited data

How the results depend on the processing

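The log2 differences of the tRNA-Gln total and of its 5′, loop and 3′ levels stayed above 0 under each alternative run. Leaving out a library moved them from 0.37 to 1.96 (total), 0.34 to 2.23 (5′), 0.83 to 1.95 (loop) and 0.28 to 1.74 (3′), lowest without Dnmt2 KO replicate 2 in each. With all libraries as deposited, the sign of the total was fixed by the rule that chose the family. The window levels come from the same contrast. The block, the table of all glycine tRNAs and the filter on reads left the estimate of the total at 1.17, unchanged. The window shares turned sign. Leaving out a library gave −0.060 to 0.47 for the 5′ share (all libraries 0.20), −0.14 to 0.64 for the loop share (0.25) and −0.72 to 0.087 for the 3′ share (−0.31). Position 1 ranged from −0.24 to 1.69 (all libraries 0.72) and position 55 from −0.10 to 1.77 (0.83). With each family rescaled to one total, positions 1, 44 and 55 turned to −0.41, −0.28 and −0.32, which takes out the rise of the total. Of 195 recomputed estimates of tRNA-Gln, 10 turned sign and 7 moved by more than 1 SD between replicates. With 2 libraries per group, leaving out a library cannot move an estimate by more than that SD. The block leaves each estimate unchanged, so the count of 7 says nothing about either kind of run. Windows shifted by 1 row, added after seeing the data, turned the sign of no estimate.

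With the replicate number as a block, limma passed 2 families for totals (tRNA-Gln and His) and 1 for the loop share (Phe), where it had passed 0. What a number marks is not in the labels, and tRNA-Gln was chosen for its ratios within numbers, so this call supports nothing. The difference between numbers 1 and 2 had a correlation of 0.86 between genotypes over the 23 family totals. Over the shares of the 71 tRNA-Gln positions that correlation was −0.041. Under the other alternatives the counts of families and positions stayed at 0. Depth limits the gap near position 56, with 104 to 220 reads, more than the plateaus.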

Other observations

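The reverse strand of the tRNA-Gln table was almost empty. At its highest position it held 2 and 1 reads in Dnmt2 KO replicates 1 and 2 and 7 and 4 reads in WT replicates 1 and 2. Reverse coverage was 0.0679% and 0.0153% of the coverage of both strands in Dnmt2 KO, and 0.177% and 0.0827% in WT. These values rest on counts near the floor of 3 reads, and no difference between genotypes is read from them. The highest reverse position was 47 and 45 in Dnmt2 KO and 47 and 45 in WT, within the middle plateau of the forward strand.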
